A study of Mus musculus with 3 samples.

Results

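The 6 potassium channel genes Kcnh2, Kcnq1, Kcne1, Kcnd2, Kcnd3 and Kcna5 of the heart were examined in a map of TBX5 binding. TBX5 is a T-box transcription factor needed for the septation and the conduction system of the heart. Its binding was mapped by ChIP-seq, the sequencing of DNA that an antibody pulls down with its protein, in dissected hearts of E14.5 embryos of CD-1, an outbred mouse stock, with no engineered allele or treatment named. The series holds 2 TBX5 ChIP samples and 1 input sample, which was sequenced without pull-down. All were from hearts that were not sorted by cell type, so the cells in which binding occurred cannot be told apart. A peak was assigned to a gene where its summit, the position of highest signal, lay in the RefSeq gene body or within 50 kb of it. By this rule 29 of the 12436 deposited peaks belonged to the channel genes, 12 to Kcnh2, 9 to Kcnq1, 4 to Kcnd3, 2 each to Kcne1 and Kcnd2, and 0 to Kcna5. The genes were chosen by name, with earlier results of these data known.

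Voltage-gated potassium channels open when the membrane is depolarized and let potassium leave the cell, which ends the action potential. Kcnh2 encodes the pore subunit of the rapid delayed rectifier current, and Kcnq1 and Kcne1 encode the pore and the accessory subunit of the slow delayed rectifier. Kcnd2 and Kcnd3 encode pore subunits of the fast transient outward current, and Kcna5 encodes that of the ultrarapid delayed rectifier, which is best known from human atria. In humans, loss of function of KCNH2, KCNQ1 or KCNE1 causes long QT syndrome.

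Both ChIP samples were pooled by the authors before peaks were called, so each peak has 1 value and no spread between replicates can be given. The depth of each sample is unknown from the files. Fold enrichment, as deposited by the authors, compares the ChIP signal at a summit with the background that the peak caller took there. The pileup counts the ChIP fragments that cover a summit, and it was solved, together with the background, from the deposited fold and p-value. Ranges in parentheses after a fold are exact 95% Poisson intervals of the pileup that take the background as known. They cover counting error only. A summit lay within 50 kb of all 7 cardiomyocyte marker genes, 2 of 4 endothelial, 2 of 4 epicardial and fibroblast, 3 of 4 neuronal and 2 of 4 liver marker genes, against 49.8% of all protein-coding genes. Such summits describe binding and not expression, so they do not check the labelled tissue.

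Promoter sequence was at hand for 4 of the channel genes, in windows from 250 bases before to 50 after a RefSeq start. Only the window of Kcnh2 overlapped a peak, and it belongs to a start inside the gene. The 250 bases before the start are shown for this bound promoter and, for comparison, for the promoters of Kcnd2, Kcnd3 and Kcna5, which no peak overlapped. They are reference sequence of GRCm38.p6 from RefSeq and were not read from these hearts. Capitals mark the T-box core, GGTGT or its reverse complement ACACC, and in Kcnd3 also the NKX2-5 letters TNAAGTG. Kcnd2 holds none of these and has no capitals.
Kcnh2, chr5:24329592-24329841, minus strand: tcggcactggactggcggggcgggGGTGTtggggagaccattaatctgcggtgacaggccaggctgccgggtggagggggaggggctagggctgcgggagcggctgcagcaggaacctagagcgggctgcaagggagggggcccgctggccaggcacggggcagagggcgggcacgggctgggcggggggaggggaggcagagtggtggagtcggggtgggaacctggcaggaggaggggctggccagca
Kcnd2, chr6:21215096-21215345, plus strand: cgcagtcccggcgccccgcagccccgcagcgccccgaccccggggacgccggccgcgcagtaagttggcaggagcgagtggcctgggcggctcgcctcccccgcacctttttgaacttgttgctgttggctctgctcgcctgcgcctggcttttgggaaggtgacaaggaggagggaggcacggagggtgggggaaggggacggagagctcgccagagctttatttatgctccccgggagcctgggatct
Kcnd3, chr3:105451640-105451889, plus strand: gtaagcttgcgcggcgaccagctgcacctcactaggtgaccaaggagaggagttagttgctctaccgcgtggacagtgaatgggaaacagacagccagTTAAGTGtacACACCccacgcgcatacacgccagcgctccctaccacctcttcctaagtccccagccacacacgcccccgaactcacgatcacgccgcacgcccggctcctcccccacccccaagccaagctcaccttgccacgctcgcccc
Kcna5, chr6:126535556-126535805, minus strand: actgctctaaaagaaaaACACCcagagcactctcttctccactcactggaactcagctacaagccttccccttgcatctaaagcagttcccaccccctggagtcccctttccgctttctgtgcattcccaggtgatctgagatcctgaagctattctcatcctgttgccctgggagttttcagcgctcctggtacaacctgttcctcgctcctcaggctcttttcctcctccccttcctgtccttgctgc

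The searched letters were AGGTGT for a T-box site, AGATAA for GATA factors and TNAAGTG for NKX2-5, on both strands. The core GGTGT, which lies within AGGTGT, was added after the sequences had been seen. AGGTGT and AGATAA were in none of the 4 channel gene windows. TNAAGTG was in that of Kcnd3, starting 152 bases before the start. GGTGT was in the Kcnh2 sequence on the printed strand, 226 bases before the start, and on the opposite strand in Kcnd3 and Kcna5, where its marked letters begin 142 and 233 bases before the start. Of all 32851 promoter windows, 13.7% held AGGTGT, 11.2% AGATAA, 11.5% TNAAGTG and 41.6% GGTGT. Peaks overlapped 1949 of these windows, of which 16.2% held AGGTGT, 5.49% AGATAA, 8.21% TNAAGTG and 46.0% GGTGT. The letters are a description of the windows and not of binding sites. The sequences under the peaks away from these starts were not analysed here.

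Kcnh2 held the strongest peak of the channel gene windows. Its strongest peak, at 24352304 to 24353005 on chromosome 5, had 33.8-fold enrichment (29.3 to 38.8) from 200 fragments over a background of 4.94. The summit lay 1075 bp upstream of the start of Kcnh2 at 24351604 that the authors' annotation assigned to it, just outside the gene body. By fold it was number 8 of the 3055 peaks of the authors' promoter class and number 143 of all 12436. By pileup it stood first in the promoter class, where the next highest had 195 fragments, and number 22 in the whole list. Of the promoter-class peaks 1.11% reached 20-fold. The nearest other protein-coding gene was Nos3, endothelial nitric oxide synthase, whose body lay 12137 bp from the summit.

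The 3 further promoter-class summits of Kcnh2 were much weaker. At the same start, 1 summit lay 112 bp upstream with 3.76-fold enrichment (2.61 to 5.26) and 1 lay 525 bp downstream with 6.11-fold (4.10 to 8.79). Their pileups were 32 and 27 fragments, over backgrounds of 7.77 and 3.58. The intervals of both lay wholly below that of the peak 1075 bp upstream. The other lay in the gene, 268 bp upstream of the internal start at 24329591, with 6.76-fold enrichment (4.76 to 9.33) from 35 fragments. Its peak, at 24329436 to 24329966, covered the whole promoter sequence shown for Kcnh2. At least 4 promoter-class summits within 50 kb were found for 0.888% of protein-coding genes, and at least 1 for 30.3%, and of the channel genes only Kcnh2 had any.

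The remaining 8 summits of Kcnh2 were in the non-promoter class. The strongest of them, at 24337206 to 24337805 in the gene body, had 15.4-fold enrichment (12.1 to 19.5) from 69 fragments and overlapped a TBX3 region. TBX3 is a related T-box factor of the conduction system, and the labels do not state the tissue or stage of its regions. This Kcnh2 peak lay 14.1 kb into the gene and 7987 bp upstream of the internal start. The next strongest lay 24.5 kb into the gene with 7.76-fold enrichment (5.21 to 11.2). A summit 2.91 kb into the gene had 7.23-fold enrichment (5.26 to 9.72), and its interval overlapped the one before. The other 5 non-promoter summits ranged between 3.36-fold and 6.23-fold, and the farthest lay 19285 bp beyond the 3′ end of the gene body. The lncRNA gene Gm15589 overlaps the 3′ part of Kcnh2, and 5 of the summits in Kcnh2 lay within it as well.

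The summits of Kcnh2 were closely spaced. They spanned 52.4 kb, with a median gap of 2713 bp between neighbours. Of the 12 summits 11 had another within 10 kb, against 5 of 9 at Kcnq1 and 32.9% of all peaks. A window with many summits holds close neighbours more readily, so this in part restates the number of summits. The authors' annotation gave 6 of the summits to the start at 24351604 and 6 to the internal start. At least 12 summits within 50 kb were found for 22 of 21631 protein-coding genes (0.102%). Among the 19149 genes whose window was within 1.5 times the length of that of Kcnh2, 2 reached this number, Kcnh2 itself and Nos3, whose window overlaps that of Kcnh2 and held 13. A further peak of 11.8-fold lay just outside the window, 52723 bp from the gene body.

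**Figure D1:**
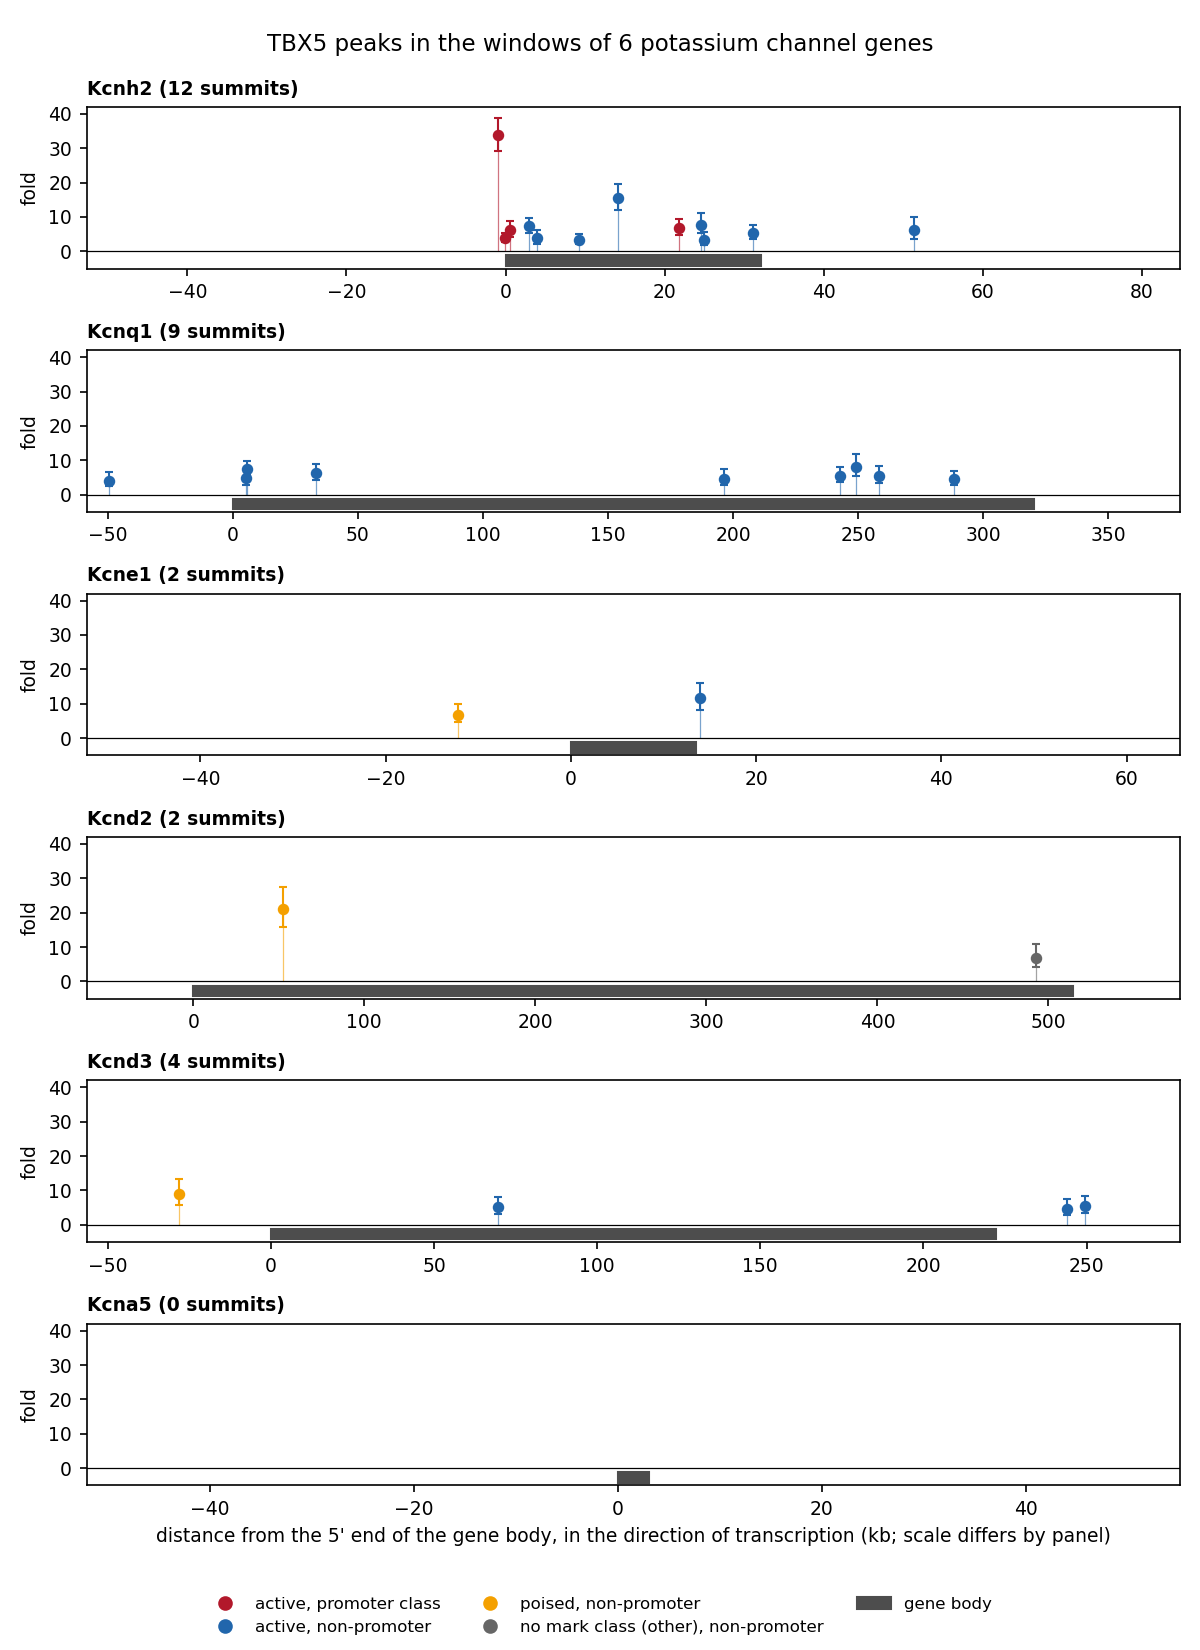
Fold enrichment of each TBX5 summit (vertical axis, ratio to background) by distance from the 5′ end of the gene body in the direction of transcription (horizontal axis, kb), with 1 panel for each channel gene, the gene body as a grey bar and 95% Poisson intervals as vertical lines. The Kcnh2 peak of 33.8-fold stands at the 5′ end of a dense group, while the 9 Kcnq1 summits lie between 4.12-fold and 8.12-fold and Kcna5 has none.

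Kcnq1 held many summits of moderate strength and none in the promoter class. Its 9 summits ranged between 4.12-fold and 8.12-fold, with a median of 5.54. The strongest, at 143355884 to 143356098 on chromosome 7, had 8.12-fold enrichment (5.41 to 11.8) from 26 fragments and lay 249 kb into the gene. The next, at 143112308 to 143112741, had 7.52-fold enrichment (5.60 to 9.89) from 49 fragments, 3395 bp downstream of the assigned start of Kcnq1, and overlapped a TBX3 region. The pileup of this peak was the higher of both, but its background was 5.65 against 2.32, so the order by fold and the order by fragments differ. The intervals of both folds overlap. Another summit near the start, 580 bp away from the last, had 4.77-fold enrichment (2.93 to 7.40).

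Kcnq1 lies in an imprinted region, where Kcnq1ot1, a long noncoding RNA, is transcribed from within the gene on the opposite strand. The body of Kcnq1 spans 320 kb, and 8 of its 9 summits lay inside it. Of these, 3 were assigned to a start of Kcnq1 itself, 1 to the start of Kcnq1ot1 and 4 to that of the lncRNA gene 4933417O13Rik. The summit assigned to Kcnq1ot1 lay 6574 bp upstream of its start and had 4.71-fold enrichment (2.85 to 7.38). The 4 summits assigned to 4933417O13Rik lay 18878 to 64722 bp upstream of its start, with 4.63-fold to 8.12-fold enrichment, and they included the strongest of the gene. No summit lay between 33.3 kb and 196 kb into the gene, a gap of 162978 bp. The remaining summit, 49524 bp from Kcnq1 and so just inside the window, lay in the body of Cd81 and had 4.12-fold enrichment (2.46 to 6.54). At least 9 summits were found for 0.476% of all protein-coding genes, and for 4.63% of the 928 genes with a window of similar length, whose median was 2.

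Kcne1 had 2 summits, both outside its short body of 13.5 kb and both in TBX3 regions. The stronger, at 92345178 to 92345625 on chromosome 16, had 11.5-fold enrichment (8.14 to 15.9) from 35 fragments and lay 505 bp beyond the 3′ end of the gene. It had H3K27ac and H3K9ac, acetyl marks of active regulatory DNA. The other, 12171 bp before the 5′ end, had 6.85-fold enrichment (4.59 to 9.85) from 27 fragments and was in the authors' poised class, with H3K4me1 but no H3K27ac. It lay between Kcne1 and Rcan1, whose body was 20312 bp away. The intervals of the 2 folds overlap. At least 2 summits were found for 26.6% of all protein-coding genes.

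Kcnd2 and Kcnd3, the genes of the transient outward current, had fewer summits than Kcnh2 and Kcnq1, and neither had one in the promoter class. Kcnd2 spans 514 kb and held 2 summits, 0.325 per 100 kb of its window, against 9.08 per 100 kb for Kcnh2. The stronger, at 21267673 to 21268213 on chromosome 6, had 20.9-fold enrichment (15.7 to 27.4) from 51 fragments and lay 52.7 kb into the gene. It was in the poised class, with H3K4me1 in 1 of the 2 region files and no other mark. Of the 506 peaks of at least 20-fold, 93 (18.4%) lacked H3K27ac. The other summit, 493 kb into the gene, had 6.85-fold enrichment (4.09 to 10.9) from 16 fragments and overlapped none of the 6 marks. Of the 436 genes with a window of similar length to that of Kcnd2, 73.6% had a summit and 53.9% had at least 2, and the median was 2 as at Kcnd2 itself.

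Kcnd3 had 4 summits, of which 1 lay in its body. The strongest, at 105423502 to 105423744 on chromosome 3, had 8.86-fold enrichment (5.64 to 13.3) from 21 fragments, was poised and lay 28294 bp before the 5′ end of the gene. The summit in the body, 69.6 kb from the 5′ end, had 5.20-fold enrichment (3.24 to 7.98). The last 2 lay 21896 and 27533 bp beyond the 3′ end, with 4.61-fold (2.71 to 7.41) and 5.45-fold (3.35 to 8.45) enrichment. They were nearer to the bodies of Ddx20 and Inka2, at 8110 and 3064 bp, than to Kcnd3. All 4 intervals overlap each other. At least 4 summits were found for 7.60% of all protein-coding genes and for 21.8% of the 1639 genes with a window of similar length to that of Kcnd3, whose median was 1.

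Kcna5 was the 1 channel gene without any summit in its window. The nearest in the list lay 210565 bp from its body, with 3.40-fold enrichment, and was nearest to Kcna6. Of all protein-coding genes 49.8% had at least 1 summit within 50 kb, and 45.4% of the 17068 genes with a window of similar length to that of Kcna5. Absence from the list says that no position there reached the peak caller's threshold, and weaker binding cannot be told from none.

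**Figure D2:**
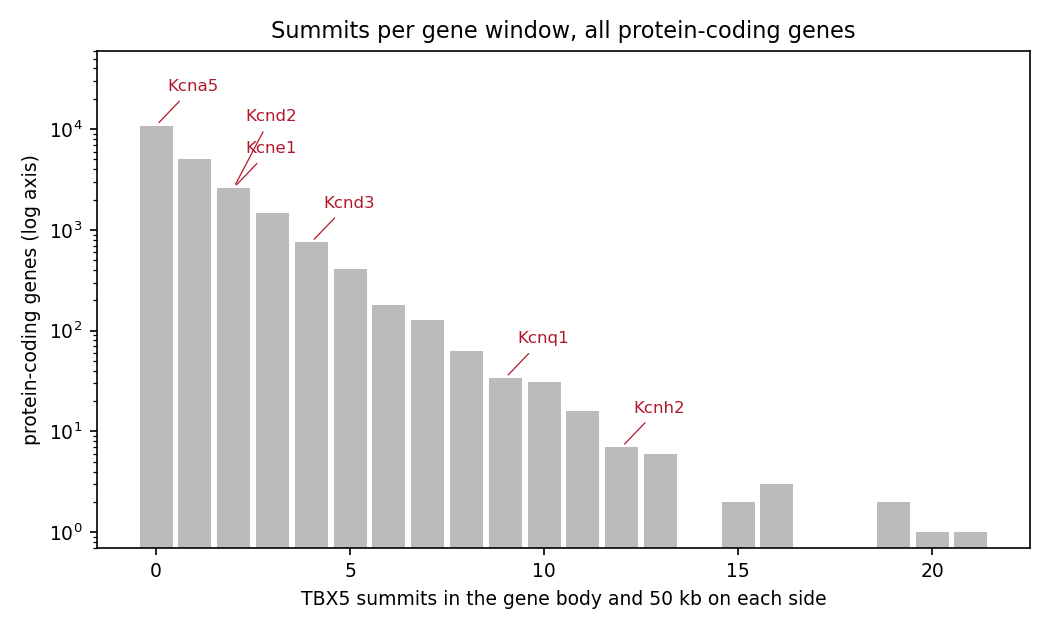
Number of protein-coding genes (vertical axis, log scale) by the number of TBX5 summits in the gene body and 50 kb on each side (horizontal axis), with the 6 channel genes named at their bars. Kcnh2 with 12 and Kcnq1 with 9 stand in the far tail, Kcnd3 stands at 4, a count that 7.60% of genes reach or pass, and Kcne1 and Kcnd2 stand at 2 and Kcna5 at 0.

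Ordered by the strongest peak, the channel genes stood as Kcnh2, Kcnd2, Kcne1, Kcnd3 and Kcnq1. The interval of Kcnh2 lay above that of Kcnd2 without overlap, and the intervals of each later gene overlapped that of the next. The highest was picked from 12 peaks at Kcnh2 and from 2 at Kcnd2, and the intervals take no account of this. The order depends on the window. With gene bodies alone the highest fold was 20.9 at Kcnd2, 15.4 at Kcnh2, 8.12 at Kcnq1 and 5.20 at Kcnd3, since the strongest Kcnh2 peak has its summit 995 bp outside the body, and at 10 kb Kcnd3 stood below Kcnq1. Ordered by the number of summits, Kcnq1 came second and Kcnd2 shared the last place among genes with a summit. A peak of at least 10-fold within 50 kb was present for 3 of the 6 genes, against 11.5% of all protein-coding genes. A peak of at least 20-fold was present for 2, against 3.22%. Any summit was present for 5 of 6 within 50 kb and also within 10 kb, against 49.8% and 29.9% of all protein-coding genes, and for 4 of 6 in the gene body itself, against 19.2%. By the nearest gene alone it was again 5 of 6, against 27.6%. Gene length was not accounted for in these shares, and no test was made of them. Of genes with a window of similar length, 47.1% had a summit within 50 kb for Kcnh2, 71.2% for Kcnq1 and 46.1% for Kcne1. The same share was 73.6% for Kcnd2, 70.7% for Kcnd3 and 45.4% for Kcna5.

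As a group, the 29 peaks had fold values close to those of the rest of the list. Their median fold was 6.11 (range 3.36 to 33.8), against 5.67 (2.11 to 85.6) for the other 12407 peaks, and their median pileup was 26 against 22 fragments. By class the differences went in opposite directions. The 25 non-promoter peaks had a median fold of 5.55, against 6.23 for the rest of that class. The 4 promoter-class peaks, all of Kcnh2, had 6.43 against 4.39. The intervals of 23 of the 29 held the median fold of all peaks, 4 lay wholly above it and 2 wholly below. Those above were the 2 Kcnh2 peaks of 33.8-fold and 15.4-fold, the stronger Kcne1 peak and the stronger Kcnd2 peak. Those below were the Kcnh2 peaks of 3.36-fold and 3.76-fold. Without Kcnh2 the median of the remaining 17 peaks was 5.55. A −log10 q of at least 10 was reached by 15 of the 29 (51.7%), against 41.5% of all peaks. At least 10-fold enrichment was reached by 4 (13.8%), against 16.7% of all peaks, and at least 20-fold by 2, against 4.07%.

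The order by fold and the order by fragments differed, since the background differed between summits. At both Kcnd2 summits and at the strongest of Kcnd3 the background was 1.48, the lowest value of the list, which 9.10% of all peaks shared within 0.01. There the 51 fragments of the stronger Kcnd2 peak gave 20.9-fold, whereas 69 fragments at Kcnh2 over a background of 3.53 gave 15.4-fold. By fragments the second Kcnh2 peak therefore stood above that of Kcnd2. By fold it stood below, although the intervals of the folds overlap. At Kcnh2 the median background was 3.91, against 2.83 in the rest of the list.

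**Figure D3:**
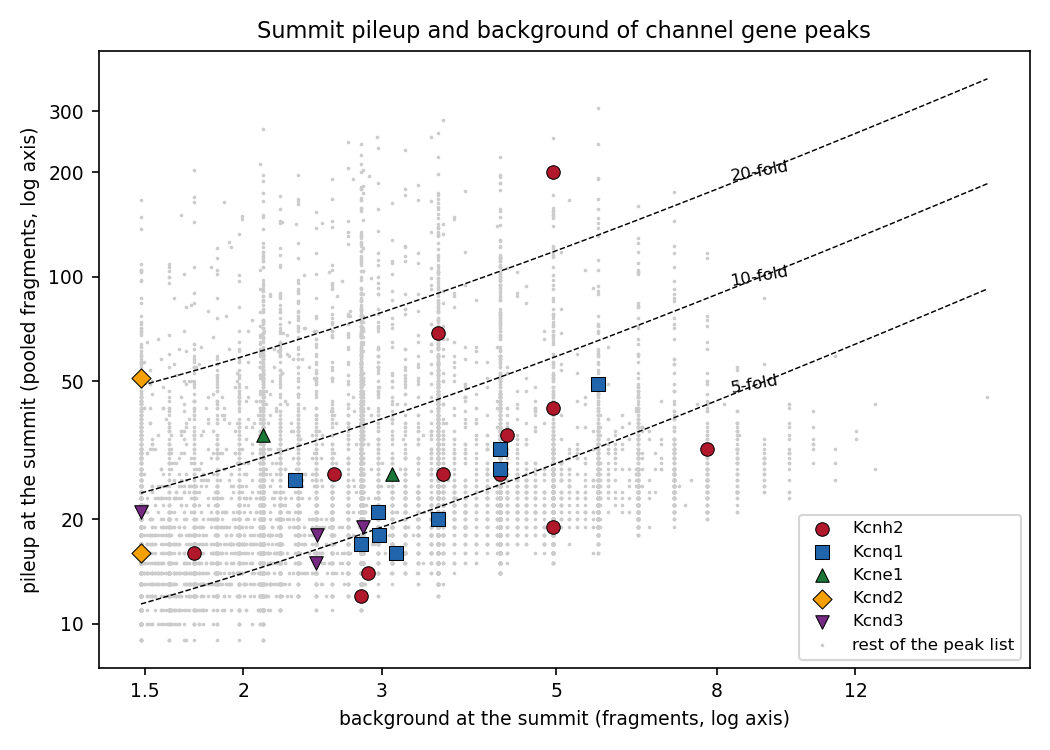
Pileup at the summit (vertical axis, pooled fragments, log scale) against the background at the summit (horizontal axis, fragments, log scale) for the peaks of 5 channel genes as coloured symbols and the rest of the list as grey dots, with dashed lines of equal fold. The strongest Kcnh2 peak lies at 200 fragments over a background of 4.94, and the 2 Kcnd2 peaks lie on the left edge at the lowest background of 1.48.

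Chromatin marks were then set beside the peaks. The authors had marked each peak for overlap with ENCODE regions of 6 histone marks, whose tissue and stage the labels do not state. H3K27ac was present at 25 of the 29 summits (86.2%, exact 95% Clopper-Pearson interval 68.3 to 96.1), against 73.5% of the rest and of all peaks. H3K4me1, a mark of enhancers, was present at 26 (89.7%, 72.6 to 97.8), against 72.2% of the rest and 72.3% of all peaks. H3K9ac was present at 15 (51.7%, 32.5 to 70.6) and H3K4me3, a promoter mark, at 9 (31.0%, 15.3 to 50.8), against 46.0% and 31.8% of the rest. Only 4 were in the promoter class (13.8%, 3.89 to 31.7), against 24.6% of the rest. Each of these intervals, which treat clustered peaks as independent, overlaps that of the rest. H3K27me3 and H3K9me3, marks of repressed chromatin, were present at 0 of 29 summits, which allows a share of up to 10.3% by a floor of 3 counts (exact upper bound 11.9%), against 1.63% and 0.241% of all peaks. Likewise 0 of 29 were in the authors' repressed or bivalent classes, against 1.13% and 0.507% of all peaks.

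Counted only where every H3K27ac file had a region, the mark was present at 23 of the 29, against 62.5% of all peaks. Of the 25 non-promoter summits 11 (44.0%, 24.4 to 65.1) had H3K9ac, against 30.7% of all non-promoter peaks.

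The counts of marked summits differed between the channel genes, some of which have few summits. Of all peaks, 73.5% had H3K27ac and 73.5% were in the active classes. Neighbouring summits may share 1 marked region, so their counts are not independent. All 12 summits of Kcnh2 and all 9 of Kcnq1 had H3K27ac in at least 1 region file and were in the active classes. In every H3K27ac file it was 10 of 12 at Kcnh2, without the summits 3.91 and 51.4 kb from the 5′ end, and all 9 at Kcnq1. Of the 8 summits of the other genes 4 had it, namely 1 of 2 at Kcne1, 0 of 2 at Kcnd2 and 3 of 4 at Kcnd3. The summits without it were the stronger Kcnd2 and Kcnd3 peaks, the weaker Kcnd2 peak and the peak before the 5′ end of Kcne1. H3K9ac was present at 9 of 12 summits of Kcnh2, 4 of 9 of Kcnq1, 1 of 2 of Kcne1, 1 of 4 of Kcnd3 and 0 of 2 of Kcnd2. H3K4me3 was present at 6 summits of Kcnh2, namely the 4 of the promoter class and those 2.91 and 3.91 kb into the gene, and at 1 summit of Kcnq1 and 2 of Kcnd3. The Kcnq1 summit with H3K4me3 was the one in the body of Cd81, and it also had H3K9ac. The 2 Kcnd3 summits with H3K4me3 were those beyond its 3′ end, nearest to Ddx20 and Inka2. The one nearest to Ddx20 was also the only Kcnd3 summit with H3K9ac. The Kcnh2 summits 112 bp upstream and 525 bp downstream of the start lacked H3K4me1, as did the weaker Kcnd2 summit. The poised class held 3 of the 29 peaks (10.3%), against 14.2% of all peaks, and the class of other peaks held 1, against 10.7%.

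The TBX3 regions, whose tissue and stage the labels do not state either, overlapped 7 of the 29 summits (24.1%, 10.3 to 43.5). The share was 27.04% of the rest and 27.03% of all peaks. The 7 summits were 3 of 12 at Kcnh2, 2 of 9 at Kcnq1, 2 of 2 at Kcne1 and 0 at Kcnd2 and Kcnd3. The 3 at Kcnh2 were non-promoter summits 9.23, 14.1 and 31.0 kb into the gene, and none was in the promoter class. At Kcnq1 they were the summits 5.71 and 33.3 kb into the gene. Among peaks with a −log10 q of at least 10 the share was 6 of 15 (40.0%, 16.3 to 67.7), against 25.2% of all such peaks.

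**Figure D4:**
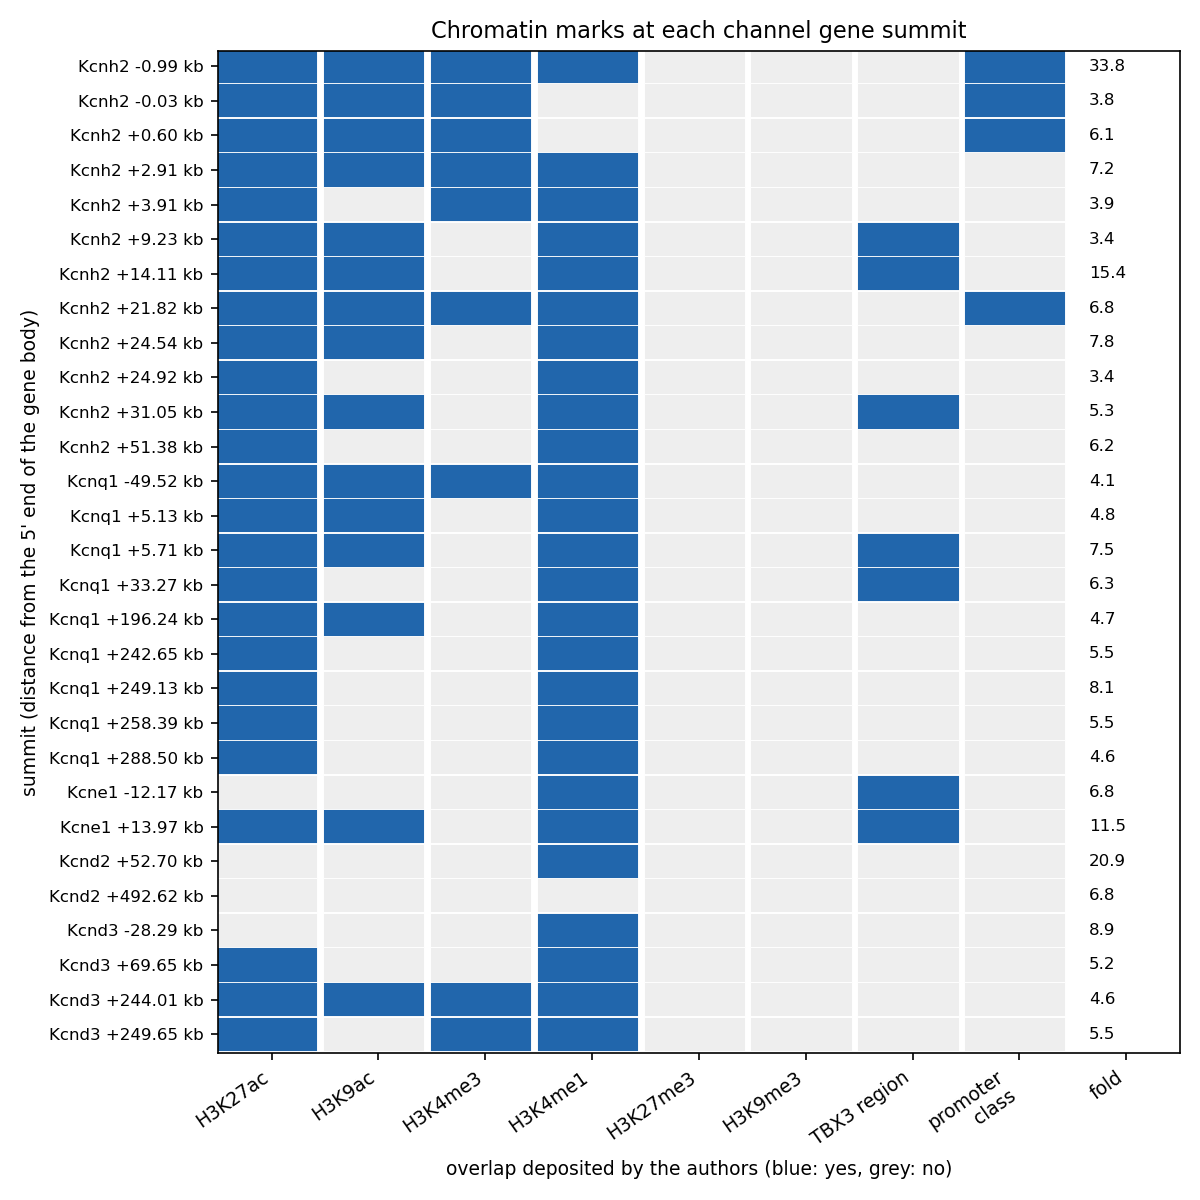
Overlap of each of the 29 channel gene summits (rows, labelled by distance from the 5′ end of the gene body in kb) with 6 histone marks, TBX3 regions and the promoter class (columns), blue where the authors' table gives an overlap and grey where it does not, with the fold enrichment at the right. The column of H3K27ac is blue for all rows of Kcnh2 and Kcnq1 and for 4 of the other 8 rows.

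Other genes of the channel family were bound about as often as genes in general. Of 35 further genes of voltage-gated pore subunits, 17 (48.6%) had a summit within 50 kb and 18 had none, against 49.8% of all protein-coding genes. The strongest was in Kcng2, which encodes a silent subunit, with 49.5-fold enrichment (41.9 to 58.1) and 10 summits in the window. Kcnq5, a relative of Kcnq1 best known from neurons, followed with 22.4-fold (17.5 to 28.3) in its body. The peak of Kcng4, of 11.5-fold (9.32 to 14.1), lay in the body of Dnaaf1. Kcng1 had 8.63-fold (5.98 to 12.1) outside its body and Kcnb2 had 8.46-fold (5.32 to 12.8) within it. The interval of Kcng2 lay wholly above that of Kcnh2. Kcna1, Kcna2, Kcna3, Kcna4 and Kcna10, of the same subfamily as Kcna5 and named here after their values had been seen, also had no summit, while Kcna6 and Kcna7 had 1 each of 3.40-fold and 2.86-fold. The peak counted for Kcna7 was in the promoter class and lay in the body of Ruvbl2.

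Of 14 genes of accessory subunits and partners, 9 (64.3%) had a summit within 50 kb, against 49.8% of all protein-coding genes. Within 10 kb it was 5 of 14, against 29.9%. Dpp6, a partner of the channels of Kcnd2 and Kcnd3, had the strongest, a promoter-class peak of 16.1-fold (12.4 to 20.6) in its body. Kcne2, a neighbour and relative of Kcne1, was counted through the same 11.5-fold peak beside Kcne1, which lay nearer to Kcne1. Kcnab1, a beta subunit, had 8.42-fold (5.42 to 12.6) in its body. Akap9, an anchoring protein of the Kcnq1 channel, had a promoter-class peak of 7.91-fold (5.83 to 10.5). The 7.86-fold peak (5.57 to 10.8) of Kcnab3 lay in the body of Chd3. Kcnip2, the main cardiac partner of the Kcnd channels and named here after its values had been seen, had 3 summits, the strongest of 7.71-fold (4.90 to 11.6) in the body of Armh3.

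**Figure D5:**
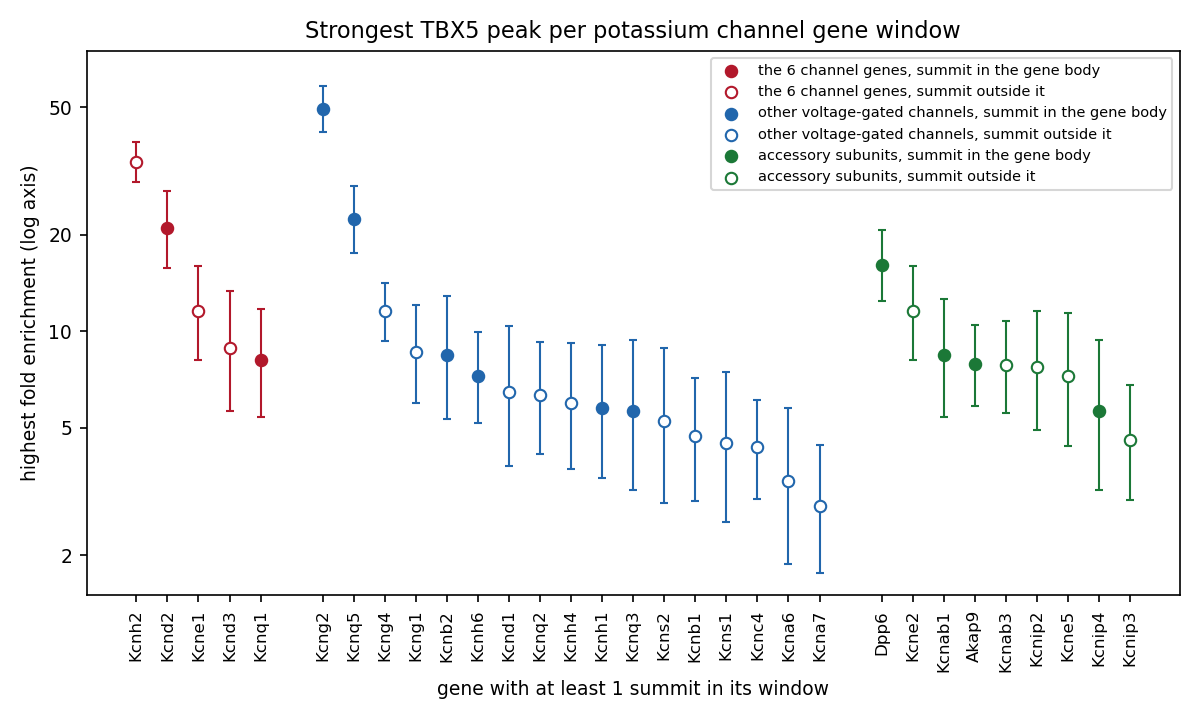
Highest fold enrichment (vertical axis, log scale, with 95% Poisson intervals) for each gene with a summit in its window (horizontal axis), among the 6 channel genes, 35 other voltage-gated channel genes and 14 accessory subunit genes, with filled symbols where that summit lies in the gene body. Kcng2 at 49.5-fold and Kcnh2 at 33.8-fold stand highest, and most other genes lie under 10-fold.

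Genes with the most similar binding were sought outside the family, by the distance in log2 of the highest fold and log2 of 1 plus the number of summits over the pooled peak call, among genes with a window within 1.5 times the length. For Kcnh2 these were Nos3, which shares its strongest peak, and Lca5l, with 11 summits and 31.7-fold (distances 0.11 and 0.15). For Kcnq1 they were Atxn1 and Etv6, with 10 and 8 summits (0.14 and 0.15). For Kcne1 they were Smim34, which shares its strongest peak, and Dnaaf1, tied with Hsdl1 over a shared peak of 11.5-fold. That peak of Dnaaf1 was also the one counted for Kcng4. For Kcnd2 they were Tcf4 and Trappc9, with 2 summits each and 20.7-fold and 19.9-fold. For Kcnd3 they were Gpc3 and Man1a2, with 4 summits each and 8.86-fold and 8.84-fold. The likeness describes 1 peak call and says nothing of shared control.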

How the data were processed

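The submitters' processing notes name the tools Bowtie2, SAMtools, MACS2 and ChIPseeker and the build mm10, without versions. Peaks were called once on both ChIP samples pooled, per the file headers and peak names. The fold enrichment ratio, −log10 p, −log10 q and score of each peak, and the distances and overlaps, are the authors' deposited values, and the score is 10 times −log10 q. Per the labels' protocols, fragments of 200 to 650 bp were selected and 50 bases of 1 end were sequenced. The pileup and background were solved from fold = (pileup + 1)/(background + 1) and the upper Poisson tail, which matched −log10 p within 0.0005 for all 12436 peaks, and a test on 489 simulated peaks recovered 100% of pileups.

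Gene bodies and promoter sequences came from RefSeq on GRCm38.p6, the assembly that mm10 names, for 21631 protein-coding genes of chromosomes 1 to 19 and X. All 35 and 14 list genes matched, Kcne5 as Kcne1l. A peak was counted as marked if any region file of that mark overlapped it. The strand of Kcnq1 and Kcne1 was taken from the starts the authors had assigned. Positions are 1-based. Both peaks and genes near each other share signal, and with 1 pooled call no test was made: values stand beside the same over all peaks or genes. The channel genes and lists were chosen with earlier results of these data known. Named genes are all 6 channel genes and the 5 of highest fold in each other list, with neighbour genes that hold or lie nearest to a summit and the 2 genes of most similar binding, and alternatives are given in the closing section. Scripts ran under Python 3.11.15 with scipy 1.17.1 for intervals, pandas 2.3.3 and numpy 2.4.6 for tables, and matplotlib 3.10.9 for plots.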

Additional observations from a re-analysis of the deposited data

How the results depend on the processing

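Since peaks were called on pooled samples, no replicate could be left out. No paired analysis was possible because the ChIP samples have no values of their own and the input has 1 sample. The number of channel genes with a summit was 4 with gene bodies alone, where Kcne1 had 0, and 5 under each other setting. The 29 summits fell to 15 with a −log10 q of at least 10 and to 15 with peaks at or above the median fold. Of all 12436 peaks, 5156 passed the first of these cuts and 6225 the second. Without Kcnh2, a choice made after seeing the data, 17 summits remained. Without Kcnh2 the share in the promoter class was 0.0%. The median fold was 7.52 with either stricter set of peaks. Both cuts favour high folds, so this rise says nothing of the channel genes. The share of protein-coding genes with a summit was 19.2% for gene bodies, 29.9% at 10 kb, 63.7% at 100 kb, 26.0% with a −log10 q of at least 10, 28.8% at or above the median fold and 27.6% by the nearest gene. Other voltage-gated channel genes with a summit numbered 6 for gene bodies, 9 at 10 kb, 7 with a −log10 q of at least 10, 10 at or above the median fold and 9 by the nearest gene, against 17. Accessory subunit genes numbered 4 for gene bodies, 5 at 10 kb and 5 by the nearest gene, against 9. The share with TBX3 regions, 24.1%, was 40.0% with a −log10 q of at least 10 and 33.3% at or above the median fold, against 25.2% and 21.7% of all such peaks, and the cause was not tested. The share with H3K27ac ranged from 73.3% at or above the median fold to 91.3% at 10 kb, against 73.5% of all peaks without a cut. The share of all peaks at or above the median fold was not taken, so the 73.3% has no like share beside it. For gene bodies alone the order by highest fold turned, with 20.9 at Kcnd2, 15.4 at Kcnh2, 8.12 at Kcnq1 and 5.20 at Kcnd3. Depth limits the weak summits most, since 12 to 20 fragments leave wide intervals.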
